A study of Rattus norvegicus with 12 samples.

Results

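The comparison described here is the response to doxorubicin (Dox) of neonatal rat cardiac myocytes in which p300 had been knocked down: 3 arrays of p300 siRNA cells (p300kd) after 8 h in 1 µM Dox against 3 arrays of p300kd cells at 0 h. The arrays were picked by the siRNA and the drug time in their labels. They make up 6 of the 12 arrays of the series, and the response was measured across all 14506 genes that the platform annotation names singly. All cultures came from Sprague Dawley rats, consisted mostly of myocytes according to the labels, received bromodeoxyuridine in their first days to hold back dividing fibroblasts, were given an siRNA, and were kept in serum-free medium with transferrin, vitamin B12 and insulin before the drug. The other 6 arrays hold cells given a non-silencing (NS) siRNA at the same times and are used only to ask where the response of the p300kd cells differs. The design text states 3 experiments, each with both siRNAs at both times, and the biological replicate number is called the experiment here. The labels do not say which animals or litters went into an experiment or how many were pooled, so these 3 experiments are the replicates. The p-values rest on the spread that remains between their arrays once each experiment's own level is taken out. That spread is estimated from the cells of both siRNAs. The only cultures without drug are those at 0 h, so that the drug and the further 8 h in culture cannot be told apart.

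Doxorubicin is an anthracycline that intercalates into DNA, traps topoisomerase II on cut DNA and undergoes redox cycling, and injury to the heart limits its use against cancer. DNA damage stabilises p53, which turns on genes of cell cycle arrest and apoptosis. p300, encoded by Ep300, is a lysine acetyltransferase and coactivator that acetylates histones and transcription factors, GATA4, MEF2 and p53 among them, and is required for heart development. The comparison asks which transcripts change with the drug when p300 is reduced.

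Levels below are log2 intensities of a gene's probe set, and a change is the 8 h minus the 0 h mean on that log2 scale, with its standard error (SE). Changes, SE and adjusted p come from a limma fit to all 12 arrays with the experiment as a block, adjusted by Benjamini-Hochberg over all 14506 genes, and a gene is said to have risen or fallen at an adjusted p under 0.05. Where the fit without that block, or without 1 experiment or 1 array, moved a count by over 1.5 times, the other count is given beside it. Levels are not compared between genes.

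Ep300 was low in the cells labelled p300kd. At 0 h its level was 10.41, 10.02 and 10.05 on the 3 p300kd arrays and 11.16, 11.01 and 11.14 on the 3 NS arrays, and at 8 h it was 10.10, 9.64 and 9.80 against 10.86, 10.72 and 10.72. Every p300kd array lay below every NS array. The p300kd level was 51.9% of the NS level at 0 h (log2 difference -0.95, SE 0.0736, adjusted p = 2.71e-05) and 52.9% at 8 h (-0.92, SE 0.0736, adjusted p = 4.48e-05), so that the transcript was reduced and not removed. Within the p300kd cells Ep300 was lower again after the drug (change -0.31, SE 0.0736, adjusted p = 0.00249), with overlapping groups. Without the experiment block this fall had an adjusted p of 0.0782.

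The cultures carried the transcripts of myocytes, and those of other heart cells were also measured. The lowest level of any of the 12 cardiac myocyte markers on a p300kd array was 11.04. Their summed linear intensity ranged from 111295 to 126983 at 0 h and from 111389 to 125264 at 8 h, and their median change was 0.00, with 3 rising and 1 falling (0 and 0 without the block, 0 rising without experiment 2). Among the 19 fibroblast markers 8 rose and 3 fell (3 and 1 without the block, 3 rising without experiment 3, 5 falling without the 8 h array of experiment 1). Their sum went from 80879 to 95171 at 0 h to between 82679 and 94047 at 8 h. Of the 11 smooth muscle and pericyte markers 3 rose and 4 fell (0 and 3 without the block), with sums of 57833 to 67870 and 52462 to 66417. Among the 15 macrophage and leukocyte markers 4 rose and 2 fell (0 and 2 without the block, 0 rising without experiment 3), with sums of 9143 to 13019 and 10536 to 13314. The 11 endothelial markers, of which 3 fell (1 without experiment 2), had the lower sums of 2294 to 2587 and 2121 to 2228. Of all genes 22.9% rose and 22.8% fell. In the lists the shares were 25% and 8.33% of myocyte, 42.1% and 15.8% of fibroblast, and 27.3% and 36.4% of smooth muscle markers. They were 26.7% and 13.3% of macrophage and 0% and 27.3% of endothelial markers, so that several are near the shares of all genes. None of the probe sets of these lists is at 0, since the deposited values have no zero. Sums rose without overlap for 6 erythroid markers, from 630 to 687 at 0 h to 765 to 804 at 8 h. Only 2 of these 6 rose and 0 fell (1 rising without the block). Their lowest level on a p300kd array, 5.90, was below the median level of all genes, 8.57. Sums also rose without overlap for 9 Schwann cell and neuron markers, from 5074 to 6105 to between 6526 and 7507. Of these 9 markers 6 rose and 0 fell (3 rising without the block or without experiment 3). Among single genes 43.2% had groups that did not overlap. The part of these cells in the results was not tested, and in such bulk RNA fewer cells of a type and less RNA per cell cannot be told apart.

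A large share of the transcripts of p300kd cells differed between 0 and 8 h of Dox. Of 14506 genes, 6639 (45.8%) were called, 3329 (22.9%) higher and 3310 (22.8%) lower. Large changes were mostly falls: 57 genes (0.393%) rose and 237 (1.63%) fell at least 2-fold, and 1 rose and 12 fell at least 4-fold. The median change was 0.34 among the genes that rose and -0.45 among those that fell. Without the experiment block 2017 genes (13.9%) rose and 2543 (17.5%) fell. The median change of all genes was 0.041, and it became 0.145 when each array was centred on its median over the genes, a scaling under which 68.8% of the calls were rises, against 50.1% here. Changes of about 0.1 are therefore read relative to that choice.

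**Figure D1:**
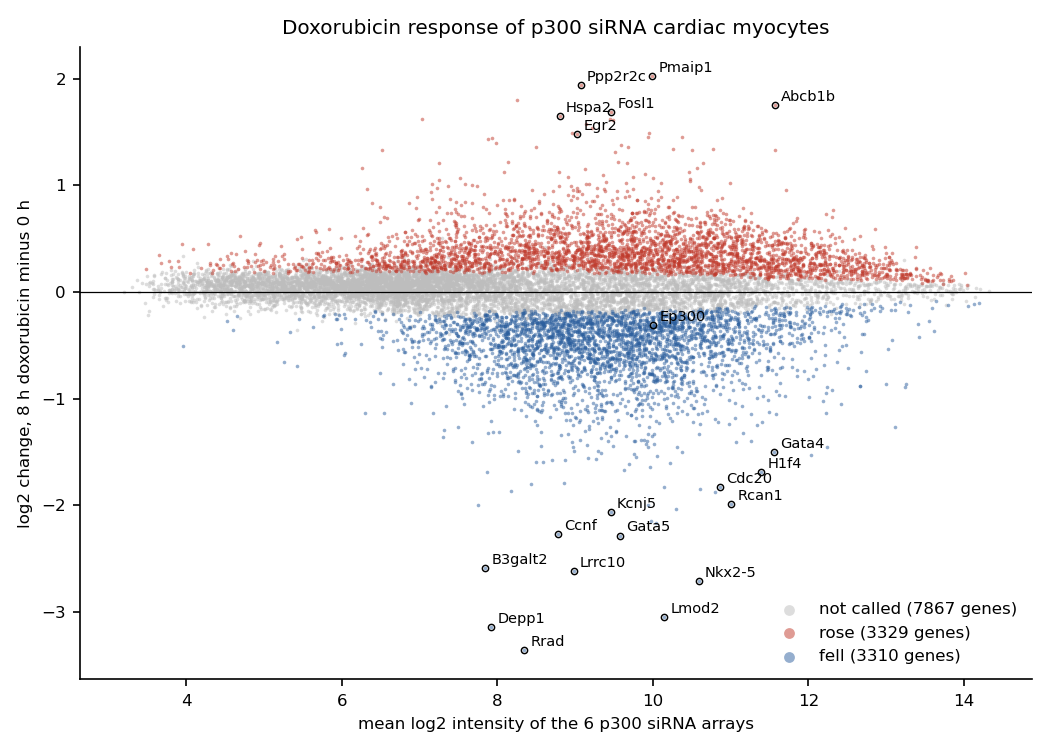
Log2 change after 8 h of Dox in p300kd cells (vertical axis) against the mean log2 intensity of each gene (horizontal axis), 1 point per gene, with rises and falls at an adjusted p under 0.05 coloured. Rises reach 2.03 (Pmaip1) and falls reach -3.36 (Rrad).

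The 3 experiments gave much the same picture. Over genes, which are not independent replicates, the changes of experiments 1 and 2, 1 and 3, and 2 and 3 correlated at 0.839, 0.850 and 0.866. Of the called genes 6585 (99.2%) had 1 sign in all 3 experiments, and among all genes 66.2% had; the former were called on these same arrays. The 3 arrays at 8 h lay wholly above or below the 3 at 0 h for 6270 genes (43.2%). The first principal component of the 6 arrays held 67.9% of the variance and parted 8 h from 0 h, and the next held 20.6% and set experiment 1 apart from the other two.

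The genes with the largest rises were of varied function. Ppp2r2c, which encodes a regulatory B subunit of the phosphatase PP2A, was at 8.13, 8.09 and 8.07 at 0 h and at 9.95, 10.10 and 10.07 at 8 h (3.84-fold, change 1.94, SE 0.0782, adjusted p = 2.22e-10). Hspa2, a chaperone of the HSP70 family, went from 8.02, 8.01 and 7.90 to 9.65, 9.51 and 9.72 (1.65, SE 0.0858, adjusted p = 3.02e-09). Cib2, a calcium- and integrin-binding protein, went from 8.29, 8.39 and 8.37 to 9.86, 9.91 and 10.01 (1.57, SE 0.0721). In all of these the 3 untreated arrays lay close together and more than 1 log2 unit below the lowest treated array. Slc19a2, a thiamine transporter, rose from 9.26, 9.30 and 9.05 to 10.60, 10.78 and 10.69 (1.49), and Nectin1, a cell adhesion molecule, from 9.29, 9.15 and 9.18 to 10.72, 10.67 and 10.60 (1.46). Cfap141 and Fam167a (1.80 and 1.62) and Nptx2, a pentraxin (1.54), rose from more scattered baselines: Cfap141 stood at 7.83, 7.26 and 6.95 in the untreated cells, with experiment 1 highest, and at 9.55, 8.91 and 8.98 in the treated ones. Ankrd13d (1.49) and Tcp11l2 (1.46) rose as well.

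Among the largest falls that belong to none of the lists below, Cdc42ep3, an effector of the small GTPase CDC42, dropped from 11.32, 11.27 and 11.35 to 9.17, 9.25 and 9.40 (-2.04, SE 0.0645, adjusted p = 2.87e-11). Shroom3, an actin-binding regulator of cell shape, went from 11.08, 10.97 and 11.11 to 8.87, 8.82 and 9.01 (-2.15, SE 0.0895). The galactosyltransferase gene B3galt2 went from 8.997, 9.08 and 9.33 to 6.31, 6.78 and 6.56 (-2.59, SE 0.0952). Even the closest arrays of the 2 groups stood more than 1 log2 unit apart in these genes. Lrrc10, a leucine-rich repeat protein of the myocyte Z-disc, fell from 9.95, 10.11 and 10.82 to 7.63, 7.89 and 7.49 (-2.62, SE 0.199), with the untreated array of experiment 3 the highest.

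p53 target genes were mostly higher. Of 24 measured, 17 rose and 3 fell, against 22.9% and 22.8% of all genes, and the median change was 0.42 (0.42, 0.34 and 0.44 in the 3 experiments). Pmaip1, which encodes the BH3-only protein NOXA, was at 9.39, 8.94 and 8.61 at 0 h and 11.33, 10.78 and 10.91 at 8 h (4.08-fold, 2.03, SE 0.11, adjusted p = 4.01e-09). Gdf15, a secreted stress factor, went from 11.37, 10.80 and 10.55 to 12.47, 12.10 and 12.14 (1.33, SE 0.0996), and Mdm2, the ligase that marks p53 for degradation, from 9.75, 9.79 and 9.40 to 10.73, 10.29 and 10.14 (0.74, SE 0.114, adjusted p = 7.36e-05). In all of these each experiment's 8 h array exceeded its 0 h array and the groups did not overlap. Rrm2b, a ribonucleotide reductase subunit for repair, rose by 0.63. Cdkn1a, the cell cycle inhibitor p21, went from 12.64, 12.50 and 12.56 to 13.31, 13.11 and 13.06 (0.59, SE 0.0508); it was chosen after its value was seen. Sesn1, of a family that restrains growth signalling, went the other way, from 8.91, 9.01 and 9.20 to 8.36, 8.40 and 8.29 (-0.69, SE 0.106), as did the phosphatase gene Ppm1d, which switches p53 signalling off, from 10.11, 10.34 and 10.35 to 9.66, 9.76 and 9.47 (-0.64, SE 0.0869). The third fall, Phlda3, was small (-0.25) and had an adjusted p of 0.0521 without the block. Gadd45a (-0.21, adjusted p = 0.103) and Plk2 (0.14, adjusted p = 0.145) did not pass.

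Genes of apoptosis split. In the BCL2 family 7 of 18 rose and 8 fell (5 without experiment 3). Besides Pmaip1 the rises were led by Bnip3, a BH3-containing protein of mitophagy (0.65), Bid (0.48) and Bax (0.41), which act for cell death at the mitochondrion. The survival gene Mcl1 went from 12.38, 12.52 and 12.45 to 11.86, 11.64 and 11.49 (-0.79, SE 0.0983, adjusted p = 1.1e-05), and the survival genes Bcl2 (-0.54) and Bcl2l1 (-0.43) fell with it. The pore-forming death gene Bak1 also fell (-0.51, SE 0.0571). Of 16 caspase and inhibitor of apoptosis genes 3 rose and 5 fell, 18.75% and 31.25% and not far from the 22.9% and 22.8% of all genes. Apaf1, the scaffold of the apoptosome, rose from 9.69, 9.89 and 9.44 to 10.40, 10.24 and 10.25 (0.63, SE 0.083). Its partner Casp9 fell from 9.43, 9.39 and 9.45 to 8.75, 8.54 and 8.55 (-0.81, SE 0.0709), and the death domain adaptors Cradd (-1.03) and Fadd (-0.87) fell as well. 

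Genes that move or process the drug were more often higher than lower. Of 24 measured, 11 rose and 2 fell (5 and 2 without the block), with a median of 0.13. Abcb1b, a P-glycoprotein that exports doxorubicin, was at 11.06, 10.64 and 10.39 in untreated and 12.73, 12.28 and 12.33 in treated cells (3.37-fold, 1.75, SE 0.113, adjusted p = 2.13e-08). Its paralog Abcb1a went from 7.44, 6.96 and 7.10 to 8.15, 7.66 and 7.84 (0.72, SE 0.148, adjusted p = 0.000915) and the related phospholipid exporter Abcb4 from 8.69, 8.44 and 8.60 to 8.84, 9.23 and 9.22 (0.52, SE 0.106). The 3 are close copies, so that probes may not separate them fully. Por, the reductase that can pass an electron to the drug, fell from 10.62, 10.60 and 10.60 to 10.13, 10.14 and 10.03 (-0.51, SE 0.0616), and Top2a, the topoisomerase II of dividing cells, from 10.51, 10.71 and 10.66 to 9.97, 10.32 and 9.95 (-0.55, SE 0.0832).

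The regulators of heart muscle identity were lower. Of 30 cardiac transcription factor genes 19 fell and 4 rose, 8 of the falls at least 2-fold where 1.63% of all genes did so, and the median was -0.46 (-0.35, -0.42 and -0.63 by experiment). Nkx2-5, the homeobox factor of the early heart, went from 11.89, 11.88 and 12.06 to 9.11, 9.37 and 9.22 (6.54-fold lower, -2.71, SE 0.0914, adjusted p = 3.8e-11). The zinc finger factor Gata4, a partner of p300, went from 12.24, 12.23 and 12.43 to 10.84, 10.79 and 10.76 (-1.50, SE 0.0628, adjusted p = 2.97e-10), and Gata5 from 10.55, 10.63 and 10.98 to 8.32, 8.28 and 8.70 (-2.29, SE 0.0802). Every treated array lay more than 1 log2 unit below every untreated one in these genes. Irx4, a factor of ventricular identity, went from 11.47, 11.73 and 12.02 to 9.17, 10.11 and 10.29 (-1.88, SE 0.114), with experiment 1 the lowest at both times. The rises were smaller, with Hopx, an unusual homeodomain protein, at 0.58 and Tbx3, a T-box repressor of the conduction system, at 0.43. Smyd1 (0.17) and Isl1 (0.14) did not pass.

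Contractile genes as a group did not follow. Of 26 sarcomere genes 9 rose and 4 fell (3 and 4 without the block, 4 rising without experiment 2), and their median was 0.00. The falls were in Lmod2, which elongates thin filaments, from 11.43, 11.62 and 11.95 to 8.19, 8.83 and 8.84 (8.27-fold lower, -3.05, SE 0.101, adjusted p = 3.57e-11), in the stretch-responsive titin partner Ankrd1, from 13.69, 13.66 and 13.72 to 12.48, 13.05 and 12.95 (-0.87, SE 0.0904), in the filament-binding Nexn (-0.74) and in Mypn (-0.43). For Lmod2 the gap between the nearest arrays of the 2 groups was over 2 log2 units. Smpx, a small stretch-responsive muscle protein, rose from 11.76, 12.11 and 12.19 to 12.25, 12.67 and 12.71 (0.52, SE 0.0448). The slow troponin genes Tnni1 (0.27, adjusted p = 0.0821 without the block) and Tnnc1 (0.21) also rose. The rise of Tnni1 was less than the differences between its experiments, with 0 h arrays at 12.66, 12.80 and 13.03. Tnnc1 went from 12.55, 12.65 and 12.69 to 12.75, 12.90 and 12.85. Skeletal actin, Acta1, was at -0.12 (adjusted p = 0.11).

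Of 28 calcium handling genes 7 rose and 7 fell (2 and 5 without the block), which is 25% each and near the 22.9% and 22.8% of all genes. The largest falls exceeded the largest rise. Rrad, a GTPase of the RGK family that keeps L-type calcium channels in check, went from 9.54, 10.19 and 10.35 to 6.72, 6.79 and 6.49 (10.3-fold lower, -3.36, SE 0.136, adjusted p = 2.22e-10). Cacnb2, an auxiliary subunit of the same channel, went from 10.76, 10.91 and 11.13 to 9.15, 8.79 and 8.86 (-1.998, SE 0.118, adjusted p = 8.44e-09). Jph2, which holds the junction between T-tubule and sarcoplasmic reticulum, went from 11.49, 11.72 and 11.83 to 10.45, 10.79 and 10.60 (-1.07, SE 0.0847). None of the treated arrays reached the untreated range in these genes. Rem1, a relative of Rrad, also fell (-0.63), and triadin, Trdn, of the calcium release complex, rose from 8.28, 8.08 and 8.75 to 8.98, 8.99 and 9.56 (0.80, SE 0.0949).

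Channels and receptors of the myocyte membrane were mostly lower. Among 22 potassium, sodium, pacemaker and gap junction channel genes 12 fell (8 without the block) and 1 rose, with a median of -0.39 (-0.30, -0.31 and -0.46 by experiment). The single rise, Gjb2 (0.22), was lost without experiment 1 or 3. Kcnj5, a subunit of the acetylcholine-gated atrial potassium channel, went from 10.32, 10.58 and 10.56 to 8.26, 8.48 and 8.52 (-2.07, SE 0.0659, adjusted p = 2.87e-11). Chrm2, the muscarinic receptor that opens it, fell from 11.56, 11.90 and 12.02 to 10.24, 10.88 and 10.94 (-1.14, SE 0.0994). Both genes had non-overlapping groups, with experiment 1 lowest at each time. Kcnk3, a background channel of the tandem pore class (-1.49), Kcnj11, the pore of the ATP-sensitive channel (-1.32), and Gja5, which encodes connexin 40 (-1.03), fell more than 2-fold too. Of 21 receptor and G protein signalling genes 10 fell and 4 rose (8 and 1 without the block, 2 rising without experiment 3). The catecholamine receptor Adra1a went from 9.62, 9.66 and 9.71 to 7.999, 8.19 and 8.06 (-1.58, SE 0.0959), and Adrb1, which drives the beat rate, from 8.89, 8.97 and 9.04 to 8.31, 8.44 and 8.03 (-0.71, SE 0.125). Npr2, a receptor of natriuretic peptides, rose by 0.40.

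Hypertrophy genes were lower where they changed, except for Gdf15: 6 of 12 fell (4 without the block) and 1 rose. Rcan1, a calcineurin target that inhibits calcineurin, went from 11.88, 12.09 and 12.03 to 9.98, 10.08 and 9.97 (-1.99, SE 0.0934, adjusted p = 1.16e-09). Ccn2, a matricellular growth factor, went from 12.96, 12.71 and 12.72 to 11.69, 11.20 and 10.92 (-1.53, SE 0.0891), and Fhl2, a LIM domain cofactor, from 11.86, 11.89 and 12.22 to 11.0, 10.91 and 10.999 (-1.02, SE 0.0657). The atrial natriuretic peptide gene Nppa read 13.94, 13.90 and 13.87 and then 13.995, 13.99 and 13.94 (0.07, adjusted p = 0.0892), near the top of the range of the array.

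The immediate early genes did not move as a block. Of 29 genes of the EGR, NR4A and KLF families and other early genes, 7 rose and 15 fell (median -0.25). All 4 Egr genes rose: Egr2, a zinc finger factor, from 8.34, 8.14 and 8.38 to 9.97, 9.63 and 9.70 (1.48, SE 0.11, adjusted p = 8.08e-08), Egr3 from 8.61, 8.44 and 8.55 to 9.51, 9.49 and 9.52 (0.97), Egr1 from 12.07, 11.75 and 11.96 to 12.92, 12.60 and 12.56 (0.77) and Egr4 from 8.50, 8.56 and 8.54 to 9.19, 9.25 and 9.20 (0.68). Ier3, a stress-induced early gene, went from 12.18, 11.78 and 11.94 to 11.03, 10.68 and 10.43 (-1.25, SE 0.105). Klf3 (-0.85), Klf6 (-0.82) and Zfp36, which destabilises cytokine transcripts (-0.77), fell too. Of 15 AP-1 subunit genes 4 rose and 4 fell, 26.7% each and near the 22.9% and 22.8% of all genes. Fosl1 went from 8.92, 8.32 and 8.60 to 10.45, 10.24 and 10.23 (1.69, SE 0.114, adjusted p = 3.5e-08) and Fos from 8.66, 8.59 and 8.63 to 9.20, 9.22 and 9.12 (0.56, SE 0.09). Jun went from 10.25, 10.33 and 10.32 to 9.46, 9.55 and 9.40 (-0.83, SE 0.0728), and Jund (-0.86) and Mafk (-1.05) fell with it. In no gene of this paragraph did the treated arrays overlap the untreated ones.

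The sequences before the start sites of 3 genes that rose are shown because they hold TGACGT, the core of the site bound by cAMP-responsive factors of the CREB and ATF family. Epha2, an ephrin receptor kinase chosen after its value was seen, rose from 9.16, 9.04 and 8.99 to 10.14, 10.39 and 10.28 (1.21, SE 0.0915), and Egr2 and Il6 rose by 1.48 and 1.43. The windows are the 250 bases before the RefSeq start in build GRCr8, 5′ to 3′ on the strand of the gene, with capitals marking TGACGT on either strand. They lie at chr5:158888379-158888628 (plus strand) for Epha2, chr20:21054442-21054691 (minus strand) for Egr2 and chr4:5894576-5894825 (minus strand) for Il6.

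Epha2: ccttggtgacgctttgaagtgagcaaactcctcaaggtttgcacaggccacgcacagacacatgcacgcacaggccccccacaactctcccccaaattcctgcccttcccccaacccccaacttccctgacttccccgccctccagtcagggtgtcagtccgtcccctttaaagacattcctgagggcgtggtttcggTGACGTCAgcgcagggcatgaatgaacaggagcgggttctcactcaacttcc

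Egr2: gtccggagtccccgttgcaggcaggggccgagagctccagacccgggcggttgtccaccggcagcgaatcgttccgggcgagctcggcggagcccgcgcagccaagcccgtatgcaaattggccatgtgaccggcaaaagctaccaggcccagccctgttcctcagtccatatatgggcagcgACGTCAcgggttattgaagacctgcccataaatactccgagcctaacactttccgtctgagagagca

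Il6: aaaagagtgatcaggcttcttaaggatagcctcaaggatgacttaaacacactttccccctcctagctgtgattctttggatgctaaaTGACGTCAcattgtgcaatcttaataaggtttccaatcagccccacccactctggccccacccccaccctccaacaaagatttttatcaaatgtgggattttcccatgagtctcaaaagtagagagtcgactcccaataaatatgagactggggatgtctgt

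In Epha2 and Il6 the match on 1 strand overlaps the match on the other, so that 2 matches share their bases, 52 and 50 bases before the start in Epha2 and 162 and 160 in Il6. Egr2 has 1 match, 67 bases before its start. Such windows were found for 11950 of the 14506 genes (82.4%). TGACGT was in 8.75% of them, in 9.53% of those of genes that rose and in 11.5% of those of genes that fell. Among genes that changed at least 2-fold it was in 8 of 47 windows of rises (17.0%) and 20 of 188 of falls (10.6%). The median GC content was 57.2% over all windows, 59.2% for rises, 60.8% for falls and 54% for genes not called. A match describes the letters and not the binding of a factor.

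Feedback inhibitors of MAP kinase signalling were lower. Of 16 dual-specificity phosphatase, Sprouty and Spred genes 11 fell and 3 rose, with a median of -0.50 (-0.40, -0.64 and -0.55 by experiment). Dusp1, which inactivates p38 and JNK, went from 12.08, 12.05 and 11.92 to 10.96, 10.89 and 10.53 (-1.22, SE 0.0676, adjusted p = 4.71e-09). Dusp8 went from 10.70, 10.54 and 10.75 to 9.13, 9.34 and 9.14 (-1.46, SE 0.118), and Spry1, an inhibitor of receptor kinase signalling, from 11.15, 11.19 and 11.25 to 10.14, 10.01 and 10.03 (-1.14, SE 0.0595). All treated arrays lay below the untreated ones here. Spry4 (0.52) and Dusp2 (0.38) rose. In the MAP kinase cascade itself 19 of 39 genes fell (12 without the block) and 4 rose. Map2k7, the kinase that activates JNK, went from 10.16, 10.09 and 10.29 to 8.89, 8.87 and 8.84 (-1.31, SE 0.0731).

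TGF-beta and BMP signalling genes were lower as well, with 18 of 30 falling and 4 rising (12 and 2 without the block, 2 rising without experiment 3). The inhibitory SMAD gene Smad6 went from 10.80, 10.79 and 10.61 to 9.66, 9.27 and 8.98 (-1.43, SE 0.0981), the BMP effector Smad9 from 9.70, 9.67 and 9.37 to 8.13, 8.37 and 8.24 (-1.34, SE 0.0953) and the BMP receptor Bmpr1a from 11.59, 11.69 and 11.45 to 10.58, 10.51 and 10.52 (-1.04, SE 0.0871). In these 3 genes every treated array lay below every untreated one. The ligand gene Tgfb3 also fell (-0.74), and Id4, a BMP-responsive inhibitor of helix-loop-helix factors, rose (0.33). Of 20 Hippo pathway and CCN genes 9 fell and 3 rose (7 and 1 without the block), among them Ccn1 (-0.88), Ccn5 (-0.78) and Amotl2 (-0.98) below. Notch pathway genes split, 9 rising and 8 falling of 22. The receptor Notch1 rose from 9.47, 9.40 and 9.36 to 10.19, 10.10 and 10.16 (0.74, SE 0.0608) and its feedback inhibitor Nrarp by 0.74, while the target genes Hes1, from 9.82, 9.48 and 9.73 to 8.80, 8.33 and 8.60 (-1.10, SE 0.094), and Hey2 (-1.05) fell. Among 38 growth factor ligand and receptor genes 12 rose and 9 fell (7 and 8 without the block, 7 rising without the 0 h array of experiment 2). The neuregulin co-receptor Erbb2, whose blockade in patients adds to the cardiotoxicity of anthracyclines, went from 10.07, 10.15 and 10.45 to 9.20, 9.43 and 9.52 (-0.84, SE 0.074).

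Mitotic genes were lower and none rose. Of 23 measured 16 fell (1 rising without the 0 h array of experiment 3), 7 of them at least 2-fold, and the median was -0.54 (-0.54, -0.39 and -0.55 by experiment). Ccnf, which encodes cyclin F, went from 9.80, 9.99 and 9.96 to 7.69, 7.64 and 7.60 (4.84-fold lower, -2.27, SE 0.095, adjusted p = 2.97e-10). Cdc20, the activator of the anaphase-promoting complex, went from 11.73, 11.85 and 11.76 to 9.94, 10.12 and 9.78 (-1.83, SE 0.0717, adjusted p = 1.6e-10), and Ccnb1, the mitotic cyclin B1, from 10.30, 10.81 and 10.52 to 8.86, 9.58 and 9.03 (-1.39, SE 0.0942). Kif4a, a motor of mitotic chromosomes that is not in the list but among the largest falls of all genes, went from 8.76, 8.80 and 8.69 to 6.81, 7.08 and 6.37 (-1.995, SE 0.112). In each the 3 treated arrays were the 3 lowest. Aurka (-0.24, adjusted p = 0.0642) and Ect2 (-0.17, adjusted p = 0.124) did not pass.

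The upstream sequences of 4 of these genes are shown because most windows of the mitotic list hold CCAAT, the letters bound by the factor NF-Y. Capitals mark CCAAT on either strand in the same 250-base windows, at chr10:13783670-13783919 (minus strand) for Ccnf, chrX:69761633-69761882 (plus strand) for Kif4a, chr5:137255800-137256049 (minus strand) for Cdc20 and chr2:33655226-33655475 (minus strand) for Ccnb1.

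Ccnf: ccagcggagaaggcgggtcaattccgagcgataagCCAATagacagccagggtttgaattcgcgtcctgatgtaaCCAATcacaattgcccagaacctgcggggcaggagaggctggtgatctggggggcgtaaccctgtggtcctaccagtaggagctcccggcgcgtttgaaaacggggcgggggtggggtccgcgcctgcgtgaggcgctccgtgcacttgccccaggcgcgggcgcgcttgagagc

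Kif4a: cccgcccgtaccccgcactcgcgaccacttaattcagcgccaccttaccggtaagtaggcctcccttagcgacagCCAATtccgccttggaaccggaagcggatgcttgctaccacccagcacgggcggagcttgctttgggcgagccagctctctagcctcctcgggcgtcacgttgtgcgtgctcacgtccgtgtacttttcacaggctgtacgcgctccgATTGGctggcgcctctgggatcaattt

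Cdc20: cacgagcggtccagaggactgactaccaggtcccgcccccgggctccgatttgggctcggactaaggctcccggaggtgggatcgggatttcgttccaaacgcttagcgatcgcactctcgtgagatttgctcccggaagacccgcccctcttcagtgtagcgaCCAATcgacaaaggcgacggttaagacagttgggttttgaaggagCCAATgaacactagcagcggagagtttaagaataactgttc

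Ccnb1: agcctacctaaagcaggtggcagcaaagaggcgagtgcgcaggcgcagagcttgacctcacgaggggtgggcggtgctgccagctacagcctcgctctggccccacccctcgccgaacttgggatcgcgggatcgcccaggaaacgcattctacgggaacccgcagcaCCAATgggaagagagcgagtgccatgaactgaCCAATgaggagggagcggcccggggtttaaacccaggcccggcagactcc

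Each holds 2 matches, the nearer one 175 bases before the start in Ccnf, and both at 175 and 27 in Kif4a, 86 and 41 in Cdc20 and 82 and 50 in Ccnb1. CCAAT was in 17 of 20 windows of the mitotic list (85%) against 35.6% of all 11950, and at least 2 copies were in 13 of 20 (65%) against 11.2%. Among the mitotic genes that fell it was in 11 of 13. Over all called genes the shares were alike, with 36.7% of rises and 36.3% of falls holding the motif. Among genes that changed at least 2-fold it was in 24 of 47 rises (51.1%) and 69 of 188 falls (36.7%).

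Genes of the G1/S transition and of DNA replication went both ways, 9 of 31 rising and 12 falling (5 and 8 without the block, 5 rising without experiment 3). Tyms, which makes thymidylate, rose from 10.41, 10.55 and 10.47 to 11.23, 11.22 and 11.29 (0.77, SE 0.0737), and Pcna, the replication clamp, from 9.92, 10.43 and 10.61 to 10.69, 11.17 and 11.34 (0.75, SE 0.0589). The helicase subunit Mcm2 went from 10.89, 10.93 and 11.19 to 9.88, 9.84 and 9.87 (-1.14, SE 0.0677), with Cdc6, which loads it, at -0.80. Of 33 DNA repair and checkpoint genes 8 rose and 8 fell (5 and 6 without the block), 24.2% each and near the shares of all genes. The translesion polymerase Polh (0.62) and Xrcc1 (0.44) rose, and Brca2 (-0.80) and Tdp1, which frees topoisomerase I from DNA (-0.66), fell. Among the 12 histone genes expressed with replication there were 9 falls and 1 rise (2 rises without experiment 2). The falls were led by the linker histone H1f4, from 12.31, 12.13 and 12.26 to 10.71, 10.50 and 10.42 (-1.69, SE 0.0629), and the core histone H4c14, from 13.27, 12.67 and 12.95 to 11.96, 11.23 and 11.33 (-1.46, SE 0.0529). H2ac25 rose from 8.86, 8.61 and 8.57 to 10.03, 9.49 and 9.53 (1.01). Histone genes are near-identical copies, so that their probe sets may share signal.

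Regulators of chromatin were lower. Of 30 acetyltransferase, deacetylase and bromodomain genes, a list that holds Ep300, 16 fell and 5 rose (3 rising without experiment 2), with a median of -0.33. Kat7, the acetyltransferase HBO1, went from 10.78, 10.81 and 10.98 to 9.75, 9.69 and 9.49 (-1.21, SE 0.0825, adjusted p = 3.55e-08), and Kat5, the acetyltransferase TIP60 of the damage response, from 9.85, 9.96 and 10.25 to 9.02, 9.01 and 9.12 (-0.97, SE 0.0706). Sirt5, a mitochondrial deacylase, went from 9.70, 9.73 and 10.02 to 8.14, 8.81 and 8.65 (-1.29, SE 0.0974). The treated arrays lay below the untreated ones in all of them. Kat2b, the acetyltransferase PCAF that binds p300, rose from 9.92, 10.05 and 9.98 to 10.30, 10.71 and 10.79 (0.61, SE 0.0863), and the deacetylase genes Hdac1 (0.47) and Hdac2 (0.33) rose with it. Of 28 histone methylation and remodelling genes 18 fell and 0 rose (1 without experiment 2). Among them were Setd2, which trimethylates histone H3 on lysine in gene bodies (-1.11), the remodeller Chd2 (-1.01) and Smarcb1, a core subunit of SWI/SNF (-0.84). Ezh2 was at -0.21 (adjusted p = 0.0653).

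Zinc finger genes named Zfp or Znf, most of which encode DNA-binding repressors, were mostly lower. Of 152 measured 107 fell and 8 rose (89 and 4 without the block, 4 rising without experiment 3), and the median was -0.41 (-0.38, -0.43 and -0.38 by experiment). With arrays centred on the gene median 94 fell and 13 rose. Zfp280b went from 8.89, 8.99 and 9.15 to 7.25, 7.56 and 7.75 (-1.49, SE 0.122), Zfp608 from 10.53, 10.28 and 10.57 to 9.19, 8.86 and 9.13 (-1.40, SE 0.0735) and Zfp260 from 9.66, 9.30 and 9.18 to 8.55, 8.08 and 8.27 (-1.08, SE 0.142). Falls were the more common outcome also for the 86 Mediator, RNA polymerase and general transcription factor genes, of which 39 fell and 17 rose, and for the 81 splicing factor genes, of which 40 fell and 11 rose (7 rising without the block, 6 without experiment 3). Gtf2b, which encodes TFIIB, went against this, from 9.18, 9.64 and 9.57 to 10.39, 10.47 and 10.73 (1.07, SE 0.0882, adjusted p = 2.2e-07). Rbm20, the heart's regulator of titin splicing, fell from 9.82, 9.80 and 9.94 to 8.74, 8.67 and 8.99 (-1.05, SE 0.0737), and Srsf4 by a like amount (-1.02).

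**Figure D2:**
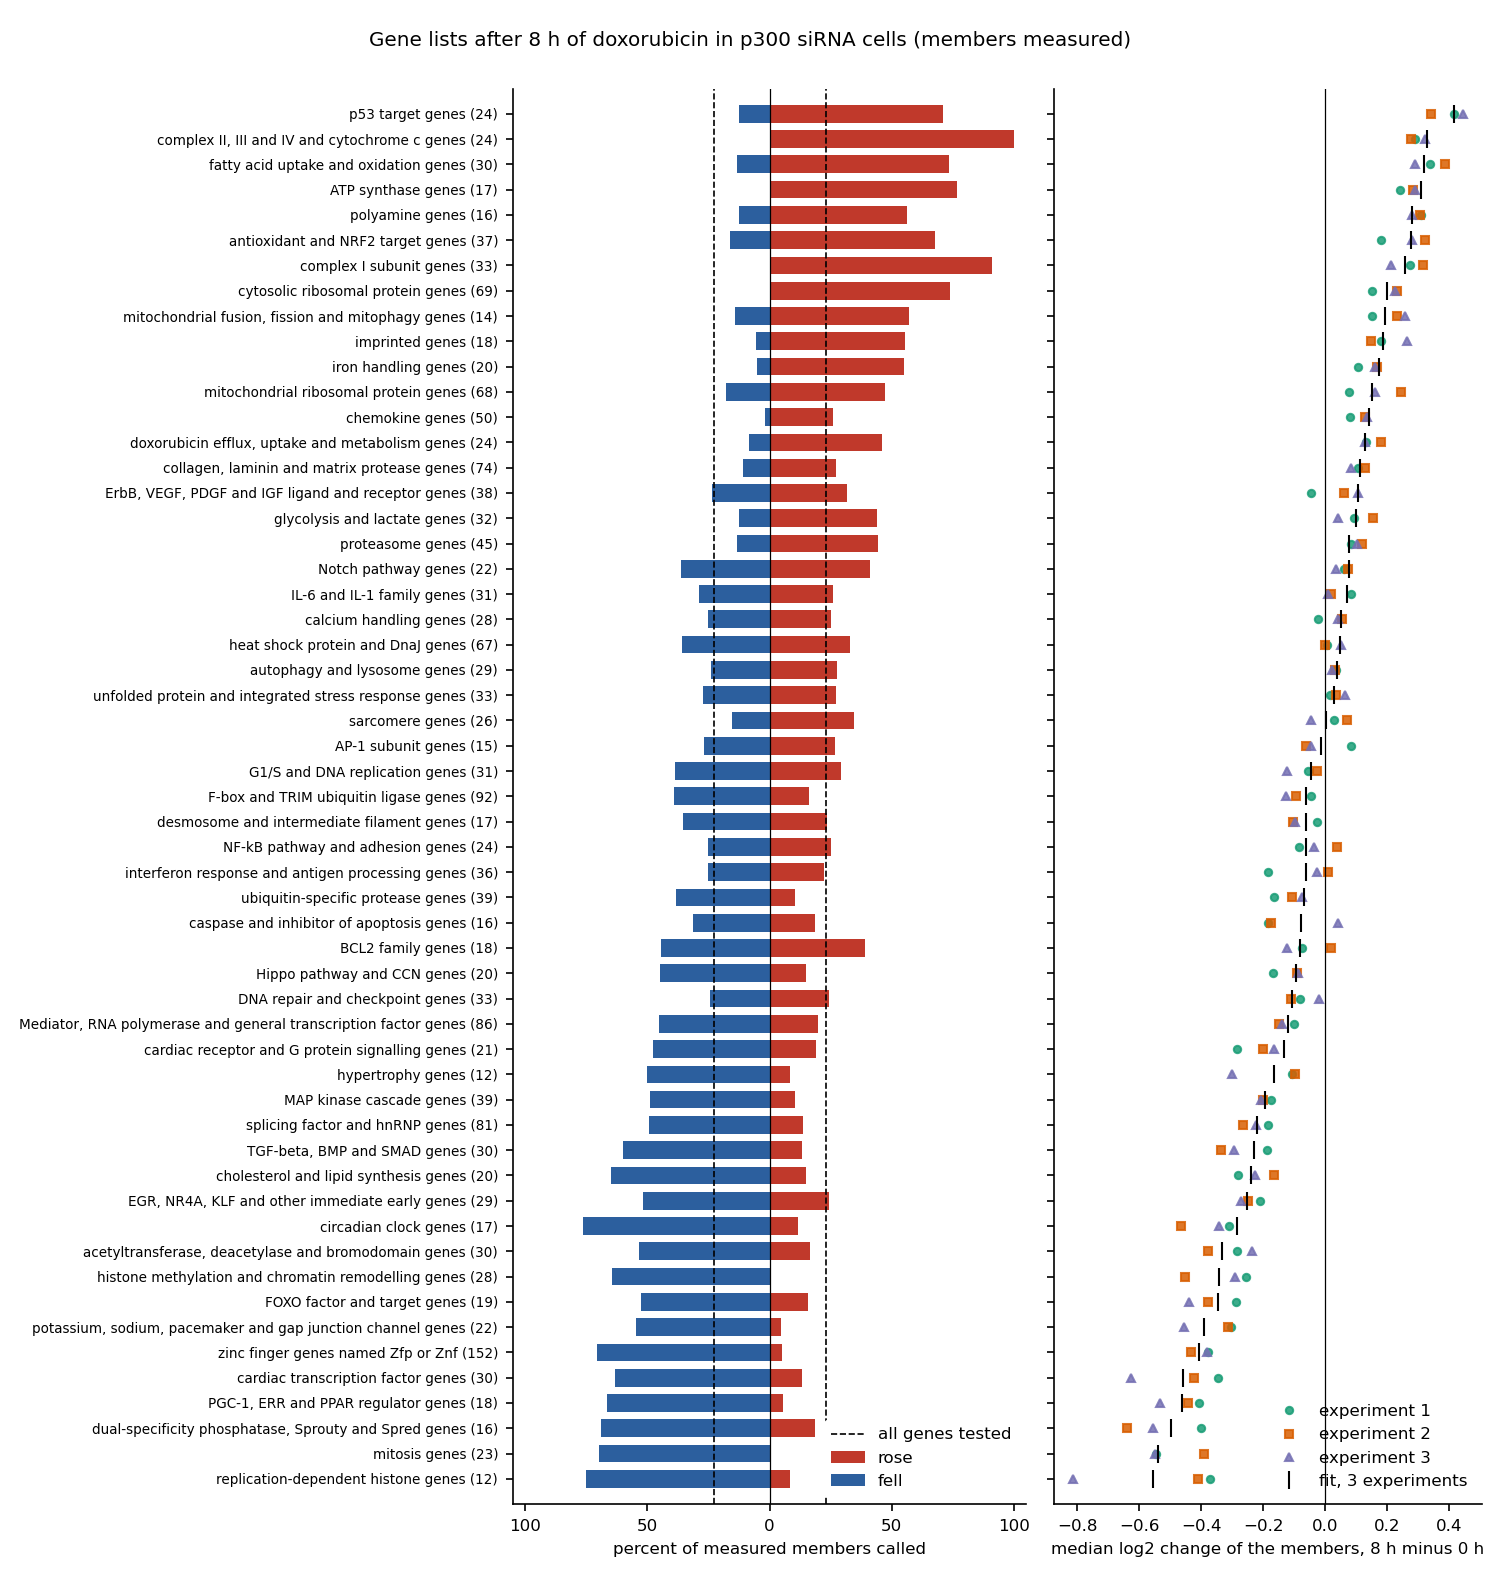
Left, percent of the measured genes of 55 pathway lists that rose or fell after 8 h of Dox in p300kd cells (horizontal axis), with dashed lines at 22.9% and 22.8%, the shares of all genes. Right, the median log2 change of each list in the fit and in each of the 3 experiments. The oxidative phosphorylation and cytosolic ribosomal lists hold no falls, and the mitosis and histone methylation lists hold no rises.

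A list median near 0 depends on the scaling. The medians of the sarcomere, BCL2, caspase, AP-1, G1/S, Hippo, NF-kB, interferon, desmosome, F-box and TRIM, ubiquitin-specific protease, myocyte, endothelial and smooth muscle lists changed sign under at least 1 of the scalings tried.

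Genes of cytosolic ribosomes and of the respiratory chain were mostly higher, each by less than 2-fold. Of 69 cytosolic ribosomal protein genes 51 rose and 0 fell, with a median of 0.20. Rps15a went from 11.07, 10.82 and 10.92 to 11.58, 11.51 and 11.69 (0.65, SE 0.0791) and Rps3a from 12.22, 12.22 and 11.95 to 12.57, 12.62 and 12.74 (0.52, SE 0.0716). Of 33 complex I subunit genes 30 rose and 0 fell, of 24 complex II to IV and cytochrome c genes 24 and 0, and of 17 ATP synthase genes 13 and 0 (17, 14 and 8 rising without the block), with medians of 0.26, 0.33 and 0.31. Ndufa1, an accessory subunit of complex I, went from 10.04, 10.06 and 10.20 to 10.77, 11.15 and 11.34 (0.99, SE 0.0835, adjusted p = 2.72e-07). Cox7b, of cytochrome c oxidase, went from 11.72, 11.93 and 11.95 to 12.37, 12.66 and 12.77 (0.74, SE 0.0533), and Atp5me from 9.50, 9.31 and 9.70 to 9.96, 10.33 and 10.48 (0.75, SE 0.0926). Treated arrays were the 3 highest in each of these genes, though the untreated ones also differed between experiments. Mitochondrial ribosomal protein genes were mixed, 32 of 68 rising and 12 falling (13 and 5 without the block, 7 falling without experiment 1). Mrps23 rose by 0.57, and Mrpl15 fell from 9.92, 10.33 and 10.62 to 9.14, 9.39 and 9.52 (-0.94, SE 0.077). Of 45 proteasome genes 20 rose and 6 fell (7 and 4 without the block), none by more than 0.46.

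Fatty acid oxidation enzymes and their regulators went opposite ways. Of 30 genes of fatty acid uptake and oxidation 22 rose and 4 fell (6 and 3 without the block), with a median of 0.32. Acadm, the medium-chain acyl-CoA dehydrogenase, went from 10.27, 10.50 and 10.67 to 10.83, 11.14 and 11.39 (0.64, SE 0.0541). The fatty acid carrier Cd36 went from 10.38, 11.06 and 11.24 to 11.12, 11.74 and 12.04 (0.74), where each experiment rose but the groups overlapped and the adjusted p was 0.0591 without the block. Cpt1a, the gate for entry into mitochondria, fell from 11.10, 11.47 and 11.61 to 9.92, 10.38 and 10.29 (-1.19, SE 0.0778, adjusted p = 2.4e-08). Of 18 genes of PGC-1, ERR and PPAR regulators, which drive such enzymes, 12 fell and 1 rose (11 and 0 without the block, 0 to 2 rising when 1 experiment or array was left out), with a median of -0.46. Ppargc1a went from 9.74, 10.19 and 10.51 to 8.40, 9.14 and 9.30 (-1.20, SE 0.117), Ppargc1b from 10.04, 10.10 and 10.22 to 8.62, 8.59 and 8.98 (-1.39, SE 0.073) and Ppara from 9.0, 9.64 and 9.82 to 7.74, 8.31 and 8.38 (-1.34, SE 0.124). No treated array reached the untreated range in these 3 regulators.

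In other metabolism, 14 of 32 glycolysis and lactate genes rose and 4 fell (6 and 2 without the block, 2 falling without experiment 3). Slc16a3, the exporter of lactate, went from 11.80, 11.81 and 11.86 to 10.56, 10.81 and 10.13 (-1.33, SE 0.0951), and Pdk1, which holds pyruvate back from mitochondria, rose (0.68). Of 20 cholesterol and lipid synthesis genes 13 fell and 3 rose (8 and 1 without the block), with Dhcr7, of the last step, going from 10.61, 10.74 and 10.67 to 9.41, 9.63 and 8.99 (-1.33, SE 0.104), Fdft1 at -0.97 and Idi1 opposite, from 9.72, 9.78 and 9.47 to 10.62, 10.65 and 10.37 (0.89, SE 0.0806). Of 14 genes of mitochondrial fusion, fission and mitophagy 8 rose and 2 fell (3 and 2 without the block, 5 rising without experiment 3), with Mief1, which recruits the fission GTPase, falling (-0.92). Among 29 autophagy and lysosome genes, at shares near those of all genes (27.6% and 24.1%), 8 rose, such as Ulk2 (0.71) and Becn1 (0.58), and 7 fell, such as the lysosomal regulator Tfeb (-0.52). Of 17 clock genes 13 fell and 2 rose (9 and 2 without the block, 0 or 1 rising without 1 experiment), with a median of -0.29. The clock repressor Cry2 went from 10.60, 10.41 and 10.49 to 8.97, 8.96 and 8.71 (-1.62, SE 0.0849, adjusted p = 3.02e-09) and Per2 from 9.39, 9.03 and 9.11 to 8.18, 8.25 and 8.20 (-0.97, SE 0.0827). The FOXO list had 10 falls and 3 rises of 19, the falls including Depp1, from 9.19, 9.51 and 9.79 to 6.39, 6.44 and 6.21 (-3.15, SE 0.155), the pseudokinase Trib2 (-1.83) and the muscle atrophy ligases Fbxo32 (-1.34) and Trim63 (-1.10).

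Antioxidant genes were mostly higher. Of 37 antioxidant and NRF2 target genes 25 rose and 6 fell (15 and 5 without the block), with a median of 0.28. The glutathione transferase gene Gsta1 went from 10.03, 9.99 and 9.87 to 11.06, 10.96 and 10.97 (1.04, SE 0.0951, adjusted p = 5.79e-07), and Sod2, the mitochondrial superoxide dismutase, from 10.50, 10.56 and 10.55 to 11.12, 11.28 and 11.42 (0.74, SE 0.0652, adjusted p = 4.17e-07). Keap1, which marks NRF2 for degradation, fell from 9.62, 9.78 and 9.86 to 8.68, 8.91 and 8.91 (-0.92, SE 0.0644). The thioredoxin inhibitor Txnip (-0.89) and the metallothionein Mt1 (-0.74) fell as well. Of 20 iron handling genes 11 rose and 1 fell (5 and 1 without the block, 0 to 3 falling when 1 experiment or array was left out). Steap3, a ferrireductase, went from 8.93, 8.68 and 8.81 to 9.95, 9.85 and 9.92 (1.1, SE 0.0748), and the transferrin receptor Tfrc rose by 0.45. Of 67 heat shock protein and DnaJ genes 22 rose and 24 fell (14 and 19 without the block). Dnajb5, from 10.77, 10.66 and 10.89 to 9.88, 9.79 and 9.72 (-0.98, SE 0.0774), Dnajb1 (-0.83) and Bag3 (-0.78), which serve the heat shock response of muscle, were among the falls. Unfolded protein response genes stood at 9 rises and 9 falls of 33 (5 and 7 without the block), 27.3% each and near the shares of all genes, with Xbp1, one of its main factors, at 12.88, 12.80 and 12.69 and then 11.83, 11.62 and 11.52 (-1.13, SE 0.0603).

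Single cytokine genes held some of the larger rises. Of 31 IL-6 and IL-1 family genes 8 rose and 9 fell (4 and 6 without the block, 5 rising without experiment 3, 5 falling without the 0 h array of experiment 1), 25.8% and 29.0% against the 22.9% and 22.8% of all genes. Il6 went from 7.46, 7.25 and 6.78 to 8.62, 8.75 and 8.41 (1.43, SE 0.134, adjusted p = 7.15e-07), the related cytokine Lif from 9.23, 8.94 and 9.01 to 10.16, 9.98 and 9.90 (0.95, SE 0.0778) and the receptor Il1rl2 from 9.20, 8.57 and 8.29 to 10.56, 10.18 and 10.15 (1.61, SE 0.11). The signal transducer Stat3 fell from 12.46, 12.51 and 12.58 to 11.93, 11.96 and 11.87 (-0.59, SE 0.047), as did the feedback inhibitors Socs3 (-0.92) and Socs2, from 11.45, 11.52 and 11.62 to 9.64, 9.65 and 9.76 (-1.85, SE 0.0633, adjusted p = 4.04e-11). The groups were apart in all 6 genes. Of 24 NF-kB pathway and adhesion genes 6 rose and 6 fell (5 and 4 without the block, 3 rising without experiment 2 or 3), 25% each and near the shares of all genes. The adhesion molecule Icam1 rose from 11.41, 11.16 and 11.11 to 12.29, 12.27 and 11.998 (0.96, SE 0.0626), and the NF-kB subunit Rela fell from 11.97, 11.83 and 11.93 to 11.09, 10.90 and 10.80 (-0.98, SE 0.0558). Of 50 chemokine genes 13 rose and 1 fell (6 and 0 without the block, 8 rising and up to 3 falling without 1 experiment). The share that rose, 26%, is near the 22.9% of all genes, and the share that fell, 2%, is below their 22.8%. The receptor Cxcr4 went from 7.62, 7.51 and 7.45 to 8.38, 8.86 and 8.72 (1.13, SE 0.109).

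Set against the NS cells, whose arrays are separate, the response in p300kd cells had the same direction in nearly all genes called in both. In NS cells 6317 genes were called, 3133 (21.6%) up and 3184 (21.9%) down. Of the calls 5406 had the same direction in both, which is 81.4% of the p300kd and 85.6% of the NS calls, and 2 had opposite directions. These 2, chosen after their values were seen, were Lgals3bp, which encodes a secreted galectin-binding protein, at -0.08 in p300kd and 0.11 in NS cells, and the olfactory receptor gene Or9q1 at -0.23 and 0.23. All 294 genes that changed at least 2-fold in p300kd cells were called in the same direction in NS cells. The change was the larger one in p300kd cells for 216 of these 294, and the larger one in NS cells for 120 of the 255 genes that changed at least 2-fold there, selections that each favour the cells they were made in. Over all genes the SD of the change was 0.370 in p300kd and 0.345 in NS cells.

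**Figure D3:**
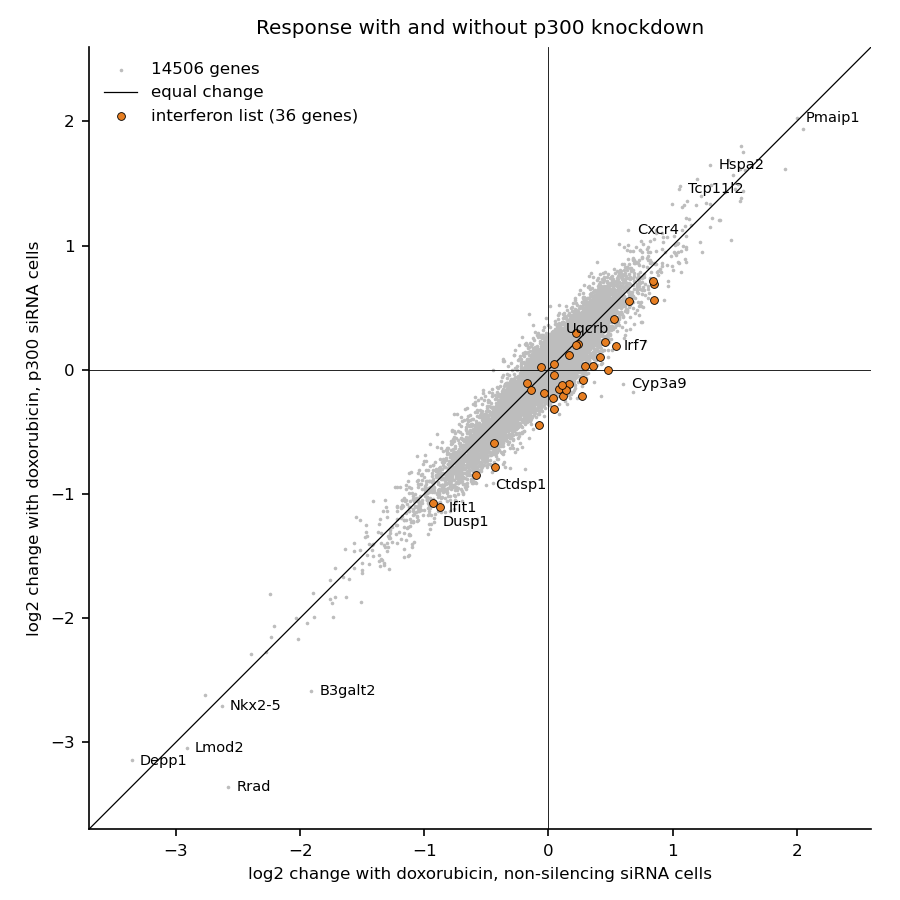
Log2 change after 8 h of Dox in p300kd cells (vertical axis) against NS cells (horizontal axis), 1 point per gene, with the 36 interferon response and antigen processing genes in orange. Genes follow the diagonal (correlation over genes 0.946), and 33 of the 36 orange points lie below it.

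No gene differed between the 2 siRNAs in its response at an adjusted p under 0.05 (0% of 14506, limma with the block, smallest adjusted p 0.902), and 639 genes (4.41%) had an unadjusted p under 0.05, or 228 without the block. The median SE of a difference was 0.111, and differences well above it, such as those of B3galt2 and Rrad below, did not pass. The smallest unadjusted p-values were of Uqcrb, a complex III subunit that changed by 0.33 in p300kd and 0.07 in NS cells (difference 0.26, SE 0.0494), and of B3galt2, at -2.59 and -1.91 (difference -0.68, SE 0.135). Then came the phosphatase gene Ctdsp1 at -0.93 and -0.50, the cytochrome P450 gene Cyp3a9 at -0.11 and 0.60, and Tcp11l2 at 1.46 and 1.05. Rrad changed by -3.36 in p300kd and -2.58 in NS cells (difference -0.79, SE 0.192, adjusted p = 0.923).

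The 36 interferon response and antigen processing genes, which act against viruses and display peptides on the cell surface, had a lower 8 h minus 0 h change in p300kd than in NS cells in most cases. In p300kd cells 8 rose and 9 fell (3 and 1 without the block, 5 rising without experiment 2, 5 falling without experiment 1), and in NS cells 14 rose and 5 fell. The median change was -0.06 in p300kd and 0.15 in NS cells, and the sign of the former turned when arrays were centred on the gene median or quantile normalised. Irf7, the factor that amplifies the response, rose by 0.19 in p300kd and 0.54 in NS cells (difference -0.35, SE 0.0818, adjusted p = 0.902). The antiviral GTPase gene Mx1 was at 0.00 and 0.48, the antiviral enzyme gene Rsad2 at -0.21 and 0.27, the ubiquitin-like Isg15 at -0.08 and 0.28, and Tapbp, of peptide loading, at 0.10 and 0.42. Irf7, Mx1, Rsad2, Isg15 and Tapbp were chosen after their values were seen. Tap1, a peptide transporter, rose in both (0.72 and 0.84), and Irf9, which carries the interferon signal to DNA, fell in both (-1.07 and -0.93).

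The p300kd change was the lower one in 33 of these 36 genes, with a median difference of -0.23, and 12 of 36 had an unadjusted p under 0.05 against 4.41% of all genes. It was lower in all 3 experiments for 15 of 36 (41.7%, against 12.2% of all genes) and higher in all 3 for 0. By experiment the median difference was -0.26, -0.20 and 0.00, so that experiment 3 did not show it. The count of 12 was 0 without the block, 1 with the experiment as a random effect, and 3, 7 and 16 without experiments 1, 2 and 3. It was 6 to 14 without 1 p300kd array. Under every setting run the p300kd change was lower in 29 to 34 of the 36 genes. At 0 h the p300kd level was above the NS level in 32 of 36 genes (median difference 0.18, 6 called), and at 8 h the median difference was -0.03 with 0 called. These levels come from the same arrays as the responses. Of all 14506 genes, 7486 were higher in p300kd than in NS cells at 0 h. Of the same genes 390 were called between the siRNAs at 0 h and 455 at 8 h. Markers of other cells also differed between the siRNAs: those of macrophages and leukocytes were lower in p300kd cells at 0 h in 14 of 15 genes (median difference -0.30, 7 called) and had a median difference of -0.34 at 8 h (8 called), and the fibroblast markers had medians of -0.14 and -0.16 (5 and 4 called). Their part in the result was not tested.

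**Figure D4:**
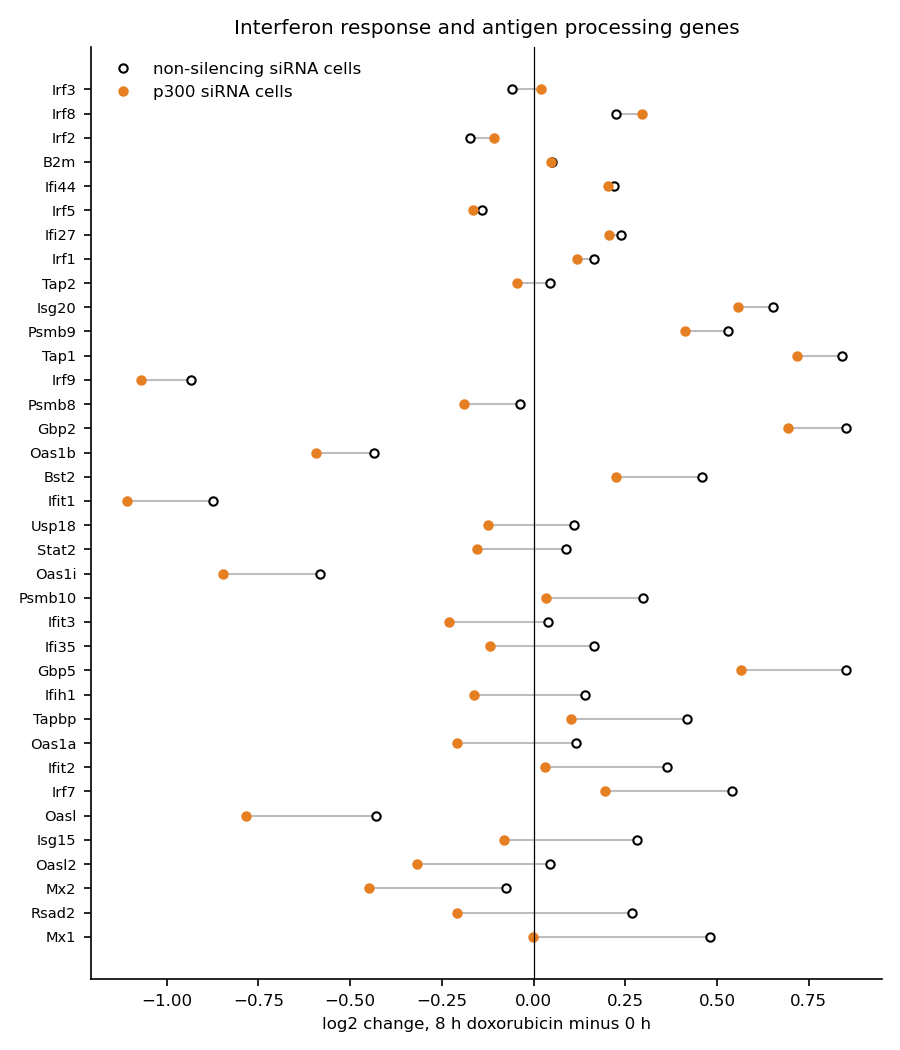
Log2 change after 8 h of Dox (horizontal axis) of 36 interferon response and antigen processing genes, filled points for p300kd and open points for NS cells, each from the limma fit on 3 experiments. The filled point lies to the left of the open one in 33 of 36 genes.

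Other lists went either way, where over all genes the p300kd change was the higher one in 50.7%. The p300kd change exceeded the NS change in 52 of 69 cytosolic ribosomal protein genes, in 23 of 33 complex I and 19 of 24 complex II to IV genes and in 22 of 30 fatty acid genes. It was the lower one in 16 of 20 cholesterol, 10 of 12 histone, 9 of 12 hypertrophy and 21 of 30 acetyltransferase, deacetylase and bromodomain genes. In all 3 experiments it was lower for only 2 of the 20 cholesterol, 1 of the 12 histone and 1 of the 12 hypertrophy genes. These shares (10%, 8.33% and 8.33%) are below the 12.2% of all genes. For the acetyltransferase, deacetylase and bromodomain list it was 7 of 30 (23.3%). The median difference of complex I genes was 0.07, 0.16 and -0.08 in experiments 1, 2 and 3. Fatty acid genes were lower in p300kd than in NS cells at 0 h (median difference -0.08, higher in 5 of 30) and had a median difference of -0.02 at 8 h. The p300kd change was the higher one in all 3 experiments for 25 of the 69 ribosomal (36.2%) and 12 of the 30 fatty acid genes (40%), against 13.7% of all genes. In the limma fit with the block, an unadjusted p under 0.05 was reached by 4.41% of all genes. It was reached by 8 of 37 antioxidant (21.6%), 7 of 30 fatty acid (23.3%) and 7 of 69 ribosomal genes (10.1%). The same held for 3 of 16 polyamine and 3 of 17 desmosome genes, and for 0 of 81 splicing factor genes. Without the block 228 of all genes reached it, in place of 639. Cox7b rose by 0.74 in p300kd and 0.40 in NS cells (adjusted p of the difference 0.902). None of these differences passed the adjusted threshold.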

How the data were processed

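RNA of neonatal rat cardiac myocytes was measured on 12 Affymetrix arrays, 3 in each of 4 groups of siRNA and Dox time. The deposited values are linear probe set intensities made by the authors with RMA in Affymetrix Expression Console 1.1, per the submitters' processing notes, which also put background correction and normalisation between arrays before any step here. How they became linear is not given in the sources used here. They run from 8.05 to 25315, and the arrays' median log2 intensities from 7.73 to 7.80. Array data hold no read depth, so the number of arrays limits the precision.

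Log2 was taken of the values. Of 29214 probe sets 15310 carry 1 gene symbol in the platform annotation, 323 several and 13581 none. Genes were named from those with 1 symbol, giving 14506 genes, of which 527 have more than 1 probe set and are shown by the brightest. RefSeq (GRCr8) holds 14481 of the symbols and was used for names and promoter windows.

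A linear model of all 12 arrays was fitted in R 4.3.3 using limma 3.58.1 (eBayes with trend, 6 residual degrees of freedom), with the 4 groups and the experiment as a block, and Benjamini-Hochberg adjustment. The pairing comes from the replicate numbers and the design text. Over 18 pairs of arrays with 1 number the deviations from the group means correlated at 0.172 to 0.689 (median 0.504), and each of the 12 arrays correlated best with an array of its own number. Data were also simulated for the p300kd comparison over 14506 genes, of which 200 were changed. On the log2 scale 20% of changes of 0.25, 92% of 0.5, and 100% of 1 and of 2 were recovered, with 13 false calls of 169. Far more genes were called in the data, which makes the adjusted threshold less strict there. These shares therefore do not measure what share of such changes was found in the data.

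Named genes are Ep300, the 15 largest rises and the 15 largest falls with 1 sign in all 3 experiments, groups that do not overlap and a higher group above the median level of 8.57, for each list up to 4 genes called in each direction and 2 not called, and the 5 smallest p-values of the difference between siRNAs. The comparison and the lists were chosen with earlier results of these data known, so a list's counts are descriptions. Alternatives were the fit without the block, with the experiment as a random effect or with p300kd arrays only, other centrings, quantile normalisation, other filters and thresholds, and leaving out each experiment or p300kd array. Centring on the median over genes was added after the data were seen. Figures were drawn with matplotlib 3.10.9.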

Additional observations from a re-analysis of the deposited data

Results flagged for a closer look

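Gem, a small GTPase related to Rrad, moved in opposite directions with the 2 siRNAs in every experiment. In p300kd cells its change was -0.18 (SE 0.0783, limma adjusted p = 0.0736), at -0.03, -0.20 and -0.32 in experiments 1, 2 and 3. In NS cells it was 0.20 (adjusted p = 0.051). Neither change passed, and Gem was picked for this pattern after its values were seen. The difference of -0.38 (SE 0.111) had an unadjusted p of 0.00377 and an adjusted p of 0.989 from the same limma fit.

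Probe sets without a gene symbol, which no comparison of genes used, also responded. In p300kd cells 4109 of 13581 (30.3%) were called in a fit over all probe sets, 2489 higher and 1620 lower, and 43 rose and 126 fell at least 2-fold.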

How the results depend on the processing

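The number of genes called in p300kd cells, 6639, depended most on the replicate block. Without it 4560 genes were called, 4555 of them among the 6639, and 2017 in place of 3329 rose. With p300kd arrays only and no replicate block 4022 were called and 1696 rose. Ep300 kept its change of -0.31 in both of these fits, with adjusted p of 0.0782 and 0.158. With each array centred on its median over the genes, a setting added after the data were seen, 8381 genes were called and 5764 rose. The other settings gave between 5121 (without experiment 3) and 6646 calls (mean over probe sets of a gene), 5787 without experiment 1 and 5797 without experiment 2, and 5726 to 6181 without a single p300kd array. At an adjusted p under 0.01 there were 5238. Of 420 named genes that were called, 75 lost the call without the block, 94 with p300kd arrays only and no block, 43 without experiment 3 and 0 to 28 under the others, and none reversed. The 30 genes named for the largest changes kept their calls under all of these. Of 126 list counts, 48 moved by over 1.5 times without the block, 59 with p300kd arrays only and no block, 33 with centring over genes and 21 without experiment 3. The difference between siRNAs had 0 calls under each setting run. Intensities near the floor limit small changes: with the dimmest genes left out, 6464 genes were called, and none of the 420 calls was lost.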

Other observations

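Further gene groups were counted in p300kd cells, where 22.9% of all genes rose and 22.8% fell. Of 16 polyamine genes 9 rose and 2 fell (7 and 1 without the block), with a median of 0.28: Odc1, the first enzyme of polyamine synthesis, went from 10.79, 11.05 and 10.97 at 0 h to 11.46, 11.59 and 11.55 at 8 h (0.60, SE 0.0565), and Sat1, which marks polyamines for breakdown, from 9.67, 9.61 and 9.54 to 10.14, 10.20 and 10.30 (0.61, SE 0.0887). Srm, which makes spermidine, fell (-0.45, SE 0.0652). Of 18 imprinted genes 10 rose and 1 fell (4 and 1 without the block). Phlda2, a growth-restraining gene, went from 9.59, 9.62 and 9.56 to 10.67, 10.63 and 10.56 (1.03, SE 0.0764), and the growth factor receptor adaptor Grb10 fell (-0.33, SE 0.0469).

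Ubiquitin genes were more often lower. Of 92 F-box and TRIM genes 15 rose and 36 fell (9 rising without the block, 8 without the 8 h array of experiment 2). The early mitotic inhibitor Fbxo5 went from 8.35, 8.41 and 8.39 to 7.16, 6.82 and 6.94 (-1.41, SE 0.124), and Fbxl22, an F-box protein of the cardiac Z-disc, from 9.87, 10.03 and 10.37 to 8.20, 8.81 and 8.73 (-1.51, SE 0.112). Of 39 ubiquitin-specific protease genes 4 rose and 15 fell (1 and 13 without the block, 2 rising without experiment 3), with Usp10, which deubiquitinates p53, going from 10.75, 10.99 and 11.06 to 9.81, 9.92 and 9.72 (-1.12, SE 0.0766). Of 17 desmosome and intermediate filament genes 4 rose and 6 fell (2 and 6 without the block, 2 rising without experiment 3). Pkp2, plakophilin of the cardiac desmosome, went from 11.97, 12.10 and 12.11 to 10.93, 11.07 and 10.80 (-1.13, SE 0.0589). Of 74 collagen, laminin and matrix protease genes 20 rose and 8 fell (8 and 6 without the block). The share that rose, 27.0%, is near the 22.9% of all genes, and the share that fell, 10.8%, is below their 22.8%. The largest rise was Loxl4, a collagen cross-linking enzyme, from 8.81, 8.49 and 8.35 to 9.99, 9.13 and 9.37 (0.95, SE 0.121).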
